A study of Homo sapiens with 23 samples.

Results

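ATP-binding cassette (ABC) transporter genes were described in 23 libraries, 11 of Caco-2 cells and 12 of HepG2 cells, both established human lines. Members were all gene IDs whose symbol reads ABC, a subfamily letter from A to G and a number, whose mean reached 1 TPM or more in any of the 8 groups. TPM is a transcript level scaled for the length of the gene and for the total of the library. The symbol was matched by 47 gene IDs (46 symbols) of the 60564 IDs listed, and 32 of these IDs (31 symbols) passed the level. ABCF2 was counted under 2 IDs, ENSG00000033050 and ENSG00000285292, whose gene bodies overlapped by 15683 bases, so their separate values are uncertain. The second ID carries the symbol ABCF2 in the deposited data and is named ABCF2-H2BK1 in GENCODE v44. At this level were 28 members in Caco-2 cells, 31 in HepG2 cells and 27 in both lines. The other 15 IDs, which included ABCB11, the bile salt export pump, and ABCG1, a cholesterol exporter, stayed below 1 TPM in every group mean and were not tested.

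Caco-2 is a line from a human colorectal adenocarcinoma used as a model of the intestinal epithelium, and HepG2 is a line from a human liver tumour used as a model of hepatocytes. Both were grown in a microfluidic device, the integrated gut-liver-on-a-chip (iGLC), either alone (mono-culture) or with the other line in the same circuit (co-culture), and were then kept for 1 day with 1 mM free fatty acids (FFAs, palmitic and oleic acid at 1:2) or without them (control). Each line thus gave 4 groups of 3 libraries, except co-cultured control Caco-2 cells with 2 libraries. Each is a single tumour-derived line for which the labels name no genetic modification, and nothing in the labels says whether replicates came from separate chips, so p-values measure the spread between libraries of these lines.

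ABC transporters bind and split ATP to move lipids, drugs, conjugates or metal complexes across membranes. In the intestine, apical pumps such as ABCB1 and ABCG2 return drugs to the lumen, and the ABCG5-ABCG8 dimer returns plant sterols and cholesterol. In the liver, the canalicular members export bile salts, phospholipid, sterols and conjugates into bile, whereas ABCC3 and ABCC4 face the blood. Other members act inside the cell, in mitochondria, lysosomes and peroxisomes, and subfamilies E and F hold soluble proteins that act on ribosomes and transport nothing.

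The promoters of 4 members are shown because their levels separated the lines most (ABCG5, ABCG8 and ABCC9) or because the level differed between cultures without overlap in Caco-2 cells (ABCB1). ABCG2 also differed between cultures without overlap in Caco-2 cells, and its promoter is not printed. The windows are from RefSeq (GRCh38.p14), 250 bases before to 50 bases after an annotated start, written 5′ to 3′ on the strand of the gene. ABCG5 (chr2:43838790-43839089, minus strand) and ABCG8 (chr2:43838721-43839020, plus strand) are transcribed away from each other, and their windows share 231 bases. Capitals mark the GATA box (AGATAA on either strand) in both. In ABCC9 (chr12:21941377-21941676, minus strand) capitals mark the GC box (GGGCGG on either strand), and in ABCB1 (chr7:87600835-87601134, minus strand) the CCAAT box (CCAAT on either strand).
ABCG5: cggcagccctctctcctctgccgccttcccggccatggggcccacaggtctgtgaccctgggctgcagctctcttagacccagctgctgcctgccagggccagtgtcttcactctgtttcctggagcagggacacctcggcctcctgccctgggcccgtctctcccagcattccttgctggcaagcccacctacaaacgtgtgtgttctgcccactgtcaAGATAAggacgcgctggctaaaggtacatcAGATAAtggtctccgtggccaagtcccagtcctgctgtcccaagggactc
ABCG8: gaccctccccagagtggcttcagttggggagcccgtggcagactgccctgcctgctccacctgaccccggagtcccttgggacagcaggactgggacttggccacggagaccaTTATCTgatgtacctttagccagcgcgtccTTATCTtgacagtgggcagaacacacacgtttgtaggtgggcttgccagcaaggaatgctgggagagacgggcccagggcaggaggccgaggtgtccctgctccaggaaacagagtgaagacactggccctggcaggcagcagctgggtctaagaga
ABCC9: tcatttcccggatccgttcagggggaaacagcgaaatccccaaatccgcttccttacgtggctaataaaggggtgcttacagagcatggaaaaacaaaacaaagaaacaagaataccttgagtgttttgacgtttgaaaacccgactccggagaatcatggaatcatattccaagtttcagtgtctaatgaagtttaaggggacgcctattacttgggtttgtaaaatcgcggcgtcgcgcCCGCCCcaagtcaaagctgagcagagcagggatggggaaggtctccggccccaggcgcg
ABCB1: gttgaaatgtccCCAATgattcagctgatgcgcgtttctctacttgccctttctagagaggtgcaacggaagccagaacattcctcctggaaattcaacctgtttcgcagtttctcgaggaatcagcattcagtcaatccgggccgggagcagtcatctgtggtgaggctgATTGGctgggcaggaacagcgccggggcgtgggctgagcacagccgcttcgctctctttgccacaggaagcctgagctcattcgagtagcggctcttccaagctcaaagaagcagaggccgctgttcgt

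A window was found for 26 of the 31 member symbols (38 windows). AGATAA was in 3 of the 38 member windows, 1 each of ABCG5, ABCG8 and ABCB1, the last in another window than the one printed, and in 10.3% of all 35116 windows. The 2 matches of ABCG5 and the 2 of ABCG8 are the same bases read from either strand, since they lie in the shared stretch. GGGCGG was in 22 of the 38 member windows (19 symbols) and in 45.0% of all windows, and CCAAT in 6 of 38 (6 symbols) and in 34.6%. TATAAA, the TATA box, was in 4 of 38 member windows, 1 each of ABCA1, ABCC2, ABCC5 and ABCC10, and in 11.5% of all windows. These matches describe letters in the window and not bound sites.

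The lines were checked against marker genes before members were compared. All 9 hepatocyte markers were higher in HepG2 cells, with a summed level of 37962 to 58916 TPM against 3210 to 5226 TPM in Caco-2 cells. Of 9 enterocyte markers, 8 were tested and all 8 were higher in Caco-2 cells (summed level 871 to 1168 TPM against 155 to 245 TPM), whereas CDX1, a homeobox factor of the intestine, was at 0 to 0.18 TPM in Caco-2 cells. Most of the Caco-2 sum came from VIL1 (408 to 551 TPM) and CDH17 (354 to 480 TPM), and most of the HepG2 sum from VIL1 (153 to 244 TPM). KRT20 and GPA33 were low in Caco-2 cells too (0.46 to 2.13 TPM and 0.39 to 2.47 TPM). Markers of fibroblasts, blood and endothelium summed to 32.2 to 52.1 TPM in Caco-2 cells, of which COL1A1 gave 27.4 to 47.4 TPM, and to 0.40 to 10.4 TPM in HepG2 cells. RNA of the other line was estimated from 34 genes of HepG2 cells and 63 of Caco-2 cells. The HepG2 genes reached 0.10% to 0.18% of their HepG2 level in mono-cultured Caco-2 cells, 0.83% and 0.09% in co-cultured Caco-2 cells without FFAs, and 2.08%, 0.24% and 0.10% in those with FFAs. The Caco-2 genes reached 0.13% to 0.24% in mono-cultured and 0.19% to 0.61% in co-cultured HepG2 cells. Read numbers cannot be had from TPM, so libraries have an unknown depth and their values carry no counting interval; each library had 19259 to 23689 genes above 0 TPM.

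The 32 members together took a similar share of the RNA in both lines, but the share was divided differently among their roles. The members summed to 1016 ± 33.0 TPM in Caco-2 cells (SD, n = 11) and 1114 ± 57.1 TPM in HepG2 cells (SD, n = 12). Pumps of drugs, conjugates and bile salts held the largest part, 321 ± 36.9 TPM in Caco-2 cells and 426 ± 52.9 TPM in HepG2 cells. The soluble members of subfamilies E and F followed with 297 ± 20.2 TPM and 290.1 ± 28.0 TPM. Mitochondrial and heme related members summed to 182 ± 12.8 TPM in Caco-2 cells and 157 ± 9.17 TPM in HepG2 cells. The members that export cholesterol and phospholipid summed to 25.3 ± 3.21 TPM in Caco-2 cells and 50.6 ± 7.21 TPM in HepG2 cells. The only channel regulator among the members, ABCC9, was at 20.7 ± 3.93 TPM in Caco-2 cells and 0.040 ± 0.056 TPM in HepG2 cells. These sums are descriptions of levels, without a test.

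**Figure D1:**
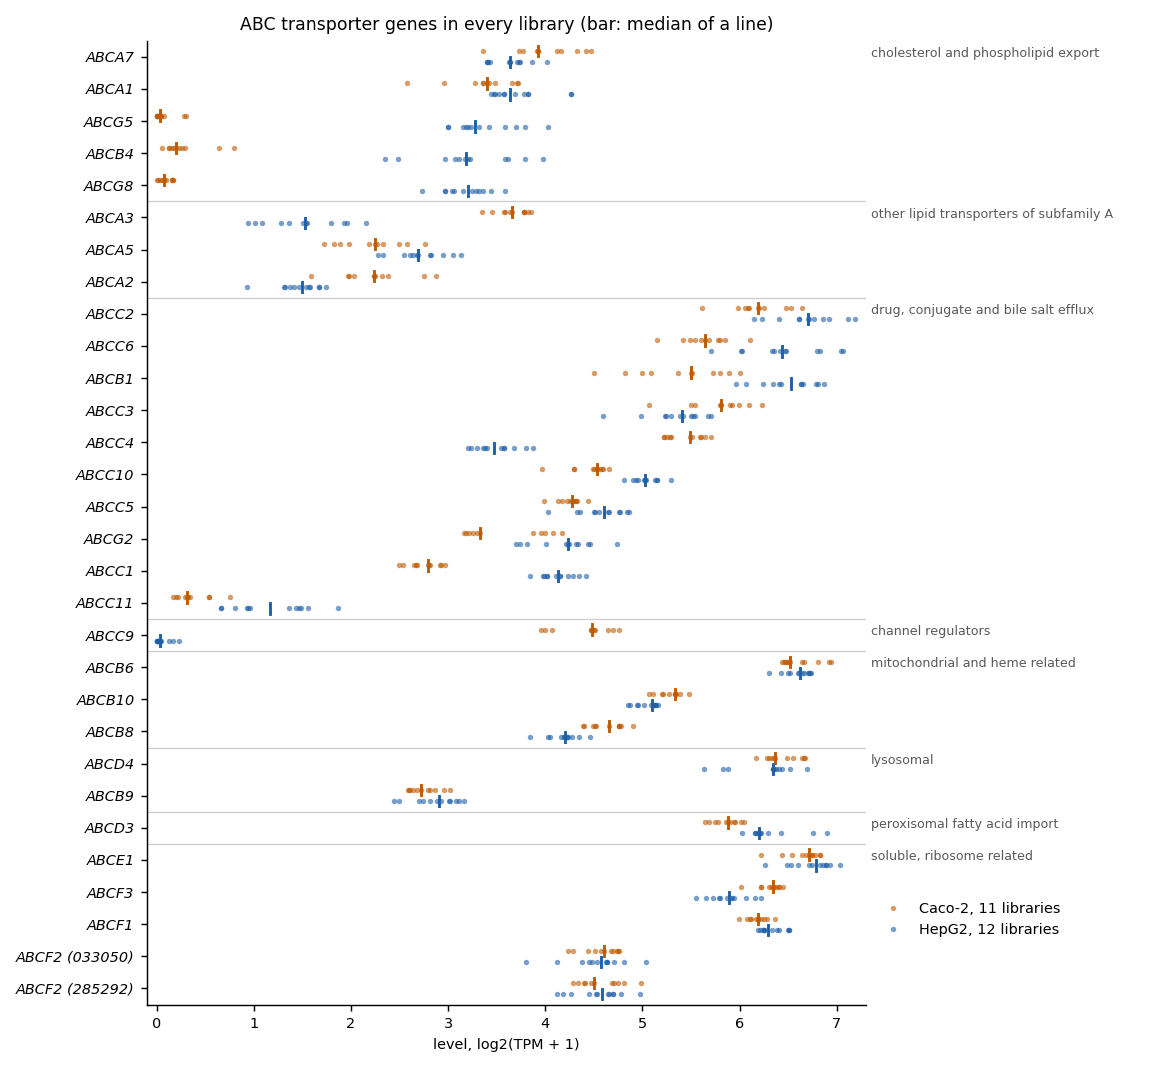
Level of members in every library, as log2(TPM + 1) on the horizontal axis, grouped by role, with Caco-2 libraries in orange, HepG2 libraries in blue and a bar at the median of each line. ABCG5, ABCG8 and ABCB4 sit near 0 in Caco-2 cells and ABCC9 sits near 0 in HepG2 cells, whereas ABCB6, ABCD4 and ABCE1 are high in both lines with overlapping points.

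Comparison of the lines in mono-culture without FFAs asked which transporters differ between the gut and the liver model before any coupling. The contrast was tested with limma on log2(TPM + 1), in 1 fit of all 8 groups over 16495 genes, with Benjamini-Hochberg adjustment and a threshold of 0.05. Of 32 members, 10 were higher and 13 lower in Caco-2 cells than in HepG2 cells. Over all genes, 39.0% were higher and 23.4% lower in Caco-2 cells, so the members called came to 71.9% against 62.4% of all genes. The median difference was -0.20 on the log2(TPM + 1) scale over the members and 0.20 over all genes tested. Because the median of all genes was shifted, the scaling mattered for the direction: with median-of-ratios scaling the median of all genes was 0.04 and 52.8% of the calls over all genes were higher in Caco-2 cells, in place of 62.5%, and the members split into 7 higher and 16 lower. With quantile normalization 50.9% of the calls over all genes were higher, and the members split into 6 higher and 17 lower. All 13 members lower in Caco-2 cells held under the 3 scalings. Of the 10 higher members, 6 held under all 3, among them ABCA3, ABCB8, ABCC4, ABCC9 and ABCF3, and ABCA2, ABCA7, ABCB10 and ABCF2 (ENSG00000033050) did not. Differences on this scale understate the change of genes near 0 TPM, and in bulk RNA fewer cells with a transcript and less of it per cell cannot be told apart.

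**Figure D2:**
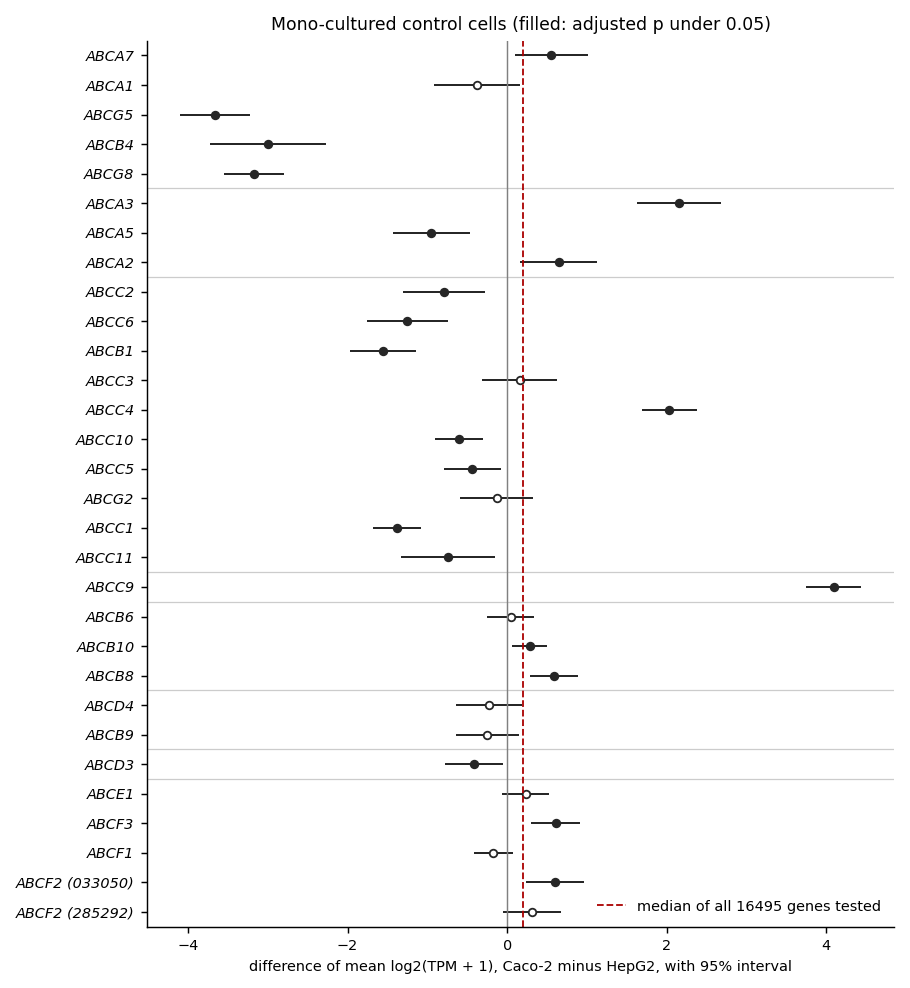
Difference of members between mono-cultured control Caco-2 and HepG2 cells on the log2(TPM + 1) scale with its 95% interval, values above 0 being higher in Caco-2 cells and the dashed line marking the median of all 16495 genes at 0.20. ABCC9 stands at 4.10, and ABCG5, ABCG8 and ABCB4 at -3.66, -3.18 and -3.00.

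Among the 5 members that export cholesterol and phospholipid, ABCG5, ABCG8 and ABCB4 were lower in Caco-2 cells, ABCA7 was higher and ABCA1 did not pass the test. ABCG5 (chr2:43812472-43838865, minus strand) encodes one member of the sterol dimer. In mono-cultured control HepG2 cells ABCG5 was at 10.97, 15.3 and 9.74 TPM, and in the matching Caco-2 libraries it was listed at 0, 0.03 and 0 TPM. ABCG8 (chr2:43831942-43882988, plus strand), the partner in the dimer, was at 8.48, 11.01 and 7.31 TPM in HepG2 cells and at 0.12, 0.12 and 0.02 TPM in Caco-2 cells. Over all conditions ABCG5 ranged from 6.96 to 15.3 TPM in HepG2 cells and from 0 to 0.23 TPM in Caco-2 cells, where 5 of 11 libraries were listed at 0. ABCG8 ranged from 5.65 to 11.01 TPM and from 0 to 0.12 TPM, with 1 Caco-2 library at 0. No Caco-2 library came near the lowest HepG2 library for either gene. The differences were -3.66 for ABCG5 (SE 0.20, adjusted p = 6.53e-12) and -3.18 for ABCG8 (SE 0.17, adjusted p = 5.74e-12). The gene bodies overlap by 6924 bases on opposite strands and the library kit keeps no strand, so reads in the overlap cannot be assigned by strand.

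ABCB4 (chr7:87401696-87480435, minus strand) encodes the flippase that delivers phosphatidylcholine to bile and lies 22.6 kb from ABCB1. It was at 8.0, 8.21 and 11.2 TPM in mono-cultured control HepG2 cells and at 0.040, 0.56 and 0.22 TPM in Caco-2 cells (difference -3.00, SE 0.34, adjusted p = 2.59e-07). All Caco-2 libraries, at 0.040 to 0.74 TPM, lay below all HepG2 libraries, at 4.09 to 14.7 TPM. ABCA7, a phospholipid exporter related to ABCA1, had the highest group mean of this role. In Caco-2 cells ABCA7 was at 21.1, 14.1 and 19.1 TPM in mono-culture control, 20.4, 12.7 and 14.2 TPM in mono-culture with FFAs, 16.8 and 14.03 TPM in co-culture control and 16.4, 9.23 and 12.2 TPM in co-culture with FFAs. In HepG2 cells the same 4 conditions gave 12.04, 12.2 and 11.4 TPM, 12.4, 11.5 and 9.57 TPM, 15.2, 9.76 and 11.4 TPM, and 9.62, 9.53 and 13.5 TPM. The ranges of the lines overlapped, and the difference in mono-culture control was 0.55 (SE 0.21, adjusted p = 0.031), which lost its call when any of 5 single libraries was left out, among them Caco-2 mono-culture control replicate 1 (adjusted p = 0.124), and with no filter on TPM (adjusted p = 0.0601). ABCA1, which loads cholesterol and phospholipid onto apolipoprotein A-I, was at 4.95 to 12.1 TPM in Caco-2 cells and 9.83 to 18.2 TPM in HepG2 cells, with a difference of -0.38 in mono-culture control (95% interval -0.90 to 0.14, adjusted p = 0.196).

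Among the 3 other members of subfamily A, ABCA3 and ABCA2 were higher and ABCA5 was lower in Caco-2 cells. ABCA3 (chr16:2275881-2340746, minus strand), the phospholipid transporter of lamellar bodies in the lung, was at 12.8, 11.6 and 11.5 TPM in mono-cultured control Caco-2 cells and 1.92, 2.46 and 1.43 TPM in HepG2 cells. The group means stood 6.17-fold apart, the difference was 2.15 (SE 0.25, adjusted p = 3.08e-07), and no library of a line reached those of the other over all conditions (9.21 to 13.5 TPM against 0.92 to 3.46 TPM). ABCA2, a lysosomal lipid transporter best known in brain, was at 5.74, 2.94 and 2.92 TPM in mono-cultured control Caco-2 cells and at 2.17, 1.89 and 1.97 TPM in HepG2 cells. The first Caco-2 library was the highest, and without it the difference of 0.65 (SE 0.22, adjusted p = 0.0171) became 0.39 (adjusted p = 0.136). ABCA5, whose substrate is less clear and whose gene body overlaps that of ABCA10 by 536 bases, had means of 3.02 TPM in Caco-2 cells and 6.75 TPM in HepG2 cells in mono-culture control (difference -0.95, SE 0.22, adjusted p = 0.00109).

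Of the 10 pumps of drugs, conjugates and bile salts, 7 were lower in Caco-2 cells (ABCB1, ABCC1, ABCC2, ABCC5, ABCC6, ABCC10 and ABCC11), ABCC4 was higher, and ABCC3 and ABCG2 did not pass the test. ABCC2, the apical pump of conjugates such as bilirubin glucuronide, was the highest of the role. In Caco-2 cells ABCC2 was at 62.5, 67.3 and 72.7 TPM in mono-culture control, 47.9, 67.0 and 88.2 TPM in mono-culture with FFAs, 72.1 and 99.0 TPM in co-culture control and 65.7, 75.2 and 91.4 TPM in co-culture with FFAs. In HepG2 cells these conditions gave 104, 145 and 108 TPM, 73.99, 120.0 and 97.1 TPM, 138, 84.0 and 96.6 TPM, and 70.0, 103 and 115 TPM. The lines overlapped over all conditions, and in mono-culture control the HepG2 mean was 1.76-fold the Caco-2 mean (difference -0.80, SE 0.24, adjusted p = 0.00735).

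ABCB1 (chr7:87503017-87713323, minus strand), P-glycoprotein, was at 21.7, 27.3 and 44.3 TPM in mono-cultured control Caco-2 cells and 85.2, 99.9 and 83.6 TPM in HepG2 cells, a 2.88-fold difference of the means (-1.55 on the log2 scale, SE 0.19, adjusted p = 7.82e-07). ABCC1, the basolateral pump of glutathione conjugates, was at 5.36, 4.63 and 6.0 TPM in Caco-2 cells and 14.8, 16.3 and 15.2 TPM in HepG2 cells. Its libraries did not overlap between lines over all conditions (4.63 to 6.81 TPM against 13.4 to 20.4 TPM, adjusted p = 3.88e-08 for the mono-culture control). ABCC6, an efflux transporter of liver mutated in pseudoxanthoma elasticum, lies 6.3 kb from ABCC1 and had means of 40.6 TPM in Caco-2 cells and 102 TPM in HepG2 cells (difference -1.25, adjusted p = 0.000122), but near-identical pseudogenes of ABCC6 make its level uncertain. ABCC10, ABCC5 and ABCC11, pumps of nucleotide analogues and other organic anions, were lower by 0.60, 0.43 and 0.74 on the log2(TPM + 1) scale. Of these, ABCC10 did not overlap between lines (14.6 to 24.2 TPM against 27.0 to 38.3 TPM), whereas ABCC11 was low in both lines (0.12 to 0.68 TPM against 0.58 to 2.63 TPM). Leaving out 1 library ended the call of ABCC5 (Caco-2 mono-culture control replicate 1 or HepG2 mono-culture control replicate 2, adjusted p = 0.116 and 0.102) and of ABCC11 (the same libraries, adjusted p = 0.0618 and 0.141).

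ABCC4 (chr13:95019835-95301475, minus strand), a pump of cyclic nucleotides, bile salts and conjugates, went the other way. It was at 44.6, 38.3 and 47.6 TPM in mono-cultured control Caco-2 cells and 9.37, 9.29 and 10.9 TPM in HepG2 cells. The means stood 4.42-fold apart (difference 2.03, SE 0.16, adjusted p = 1.55e-09), and over all conditions 36.2 to 51.2 TPM in Caco-2 cells did not overlap with 8.22 to 13.7 TPM in HepG2 cells. ABCC3, a basolateral pump of conjugates and bile salts, was at 58.7, 55.0 and 32.4 TPM in Caco-2 cells and 40.9, 41.8 and 44.1 TPM in HepG2 cells (difference 0.16, 95% interval -0.30 to 0.61). ABCG2, the breast cancer resistance protein, was at 14.5, 16.97 and 13.6 TPM in Caco-2 cells and at 18.9, 19.3 and 12.4 TPM in HepG2 cells (difference -0.13, 95% interval -0.57 to 0.31). The libraries of both genes overlapped between the lines in this condition.

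ABCC9 (chr12:21797389-21942543, minus strand) encodes the sulfonylurea receptor SUR2, which regulates ATP-sensitive potassium channels and does not pump a substrate itself. In Caco-2 cells it was at 15.8, 15.0 and 21.2 TPM in mono-culture control, 21.9, 14.5 and 21.1 TPM in mono-culture with FFAs, 21.4 and 26.1 TPM in co-culture control and 21.6, 24.9 and 24.0 TPM in co-culture with FFAs. In HepG2 cells it was at 0 to 0.17 TPM, with 4 of 12 libraries listed at 0. This was the largest positive difference among the members in mono-culture control (4.10, SE 0.16, adjusted p = 3.48e-14), and every Caco-2 library lay above every HepG2 library. KCNJ8, the pore subunit that pairs with SUR2, lies 21.8 kb from ABCC9 and was picked once its values were known. KCNJ8 was at 39.3 to 57.8 TPM in Caco-2 cells and 0 to 0.38 TPM in HepG2 cells (difference 5.66, SE 0.15, adjusted p = 9.02e-17), whereas KCNJ11, another pore subunit, stayed below 1 TPM in both lines.

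Among mitochondrial and heme related members, ABCB8 and ABCB10 were higher in Caco-2 cells. ABCB8, of the inner mitochondrial membrane, differed by 0.58 (adjusted p = 0.00114) and ABCB10, which acts in heme synthesis, by 0.28 (adjusted p = 0.0194). The call of ABCB10 was lost without Caco-2 mono-culture control replicate 1 or HepG2 mono-culture control replicate 1 (adjusted p = 0.0974 and 0.0794), and when only the groups compared were fitted (adjusted p = 0.0567). ABCB6, a porphyrin transporter, was the highest of this role. In Caco-2 cells ABCB6 was at 90.5, 98.9 and 111 TPM in mono-culture control, 87.5, 88.5 and 86.7 TPM in mono-culture with FFAs, 121 and 88.8 TPM in co-culture control and 101, 122 and 85.4 TPM in co-culture with FFAs. In HepG2 cells it was at 84.9, 103 and 104 TPM, 77.7, 96.0 and 105.5 TPM, 100.2, 105 and 96.5 TPM, and 89.6, 99.3 and 90.4 TPM in the same order. These values overlapped (difference 0.04 in mono-culture control, 95% interval -0.25 to 0.33).

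Both lysosomal members were left without a call. ABCD4, which serves the release of vitamin B12 from lysosomes, was at 77.7, 77.0 and 79.6 TPM in mono-cultured control Caco-2 cells, 70.9, 81.2 and 100.2 TPM with FFAs, 101 and 93.0 TPM in co-culture control and 80.5, 98.8 and 88.7 TPM in co-culture with FFAs. In HepG2 cells it was at 82.0, 103 and 91.0 TPM, 57.9, 80.3 and 80.2 TPM, 80.3, 55.8 and 84.0 TPM, and 48.6, 80.6 and 85.7 TPM. The widest spread was among HepG2 libraries, and the lines overlapped (difference -0.23, 95% interval -0.63 to 0.18). ABCB9, a peptide transporter of lysosomes, was at 5.00 to 7.13 TPM in Caco-2 cells and 4.45 to 7.96 TPM in HepG2 cells.

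ABCD3, which imports branched and dicarboxylic fatty acids into peroxisomes for oxidation, was lower in Caco-2 cells. In Caco-2 cells ABCD3 was at 57.2, 59.0 and 48.9 TPM in mono-culture control, 64.8, 60.7 and 53.7 TPM in mono-culture with FFAs, 57.7 and 52.7 TPM in co-culture control and 63.7, 50.6 and 61.2 TPM in co-culture with FFAs. In HepG2 cells the same order gave 77.3, 70.3 and 73.8 TPM, 118, 84.9 and 72.8 TPM, 72.4, 72.7 and 70.7 TPM, and 107, 71.5 and 64.2 TPM. The first FFAs-treated HepG2 library of either culture was the highest of its group. The difference was -0.42 in mono-culture control (SE 0.17, adjusted p = 0.0368), and its call was lost when any 1 of 5 libraries was left out, among them Caco-2 mono-culture control replicate 3 (adjusted p = 0.133), and with no filter on TPM (adjusted p = 0.0731).

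Of the 5 soluble IDs, ABCF3 and ABCF2 (ENSG00000033050) were higher in Caco-2 cells and ABCE1, ABCF1 and the other ABCF2 ID did not pass the test. ABCE1, which splits ribosomes for recycling, was the highest. In Caco-2 cells ABCE1 was at 102, 113 and 104 TPM in mono-culture control, 109, 106 and 113 TPM in mono-culture with FFAs, 85.6 and 91.9 TPM in co-culture control and 99.2, 73.7 and 106.5 TPM in co-culture with FFAs. In HepG2 cells it was at 75.8, 91.4 and 106 TPM, 112, 88.5 and 96.5 TPM, 115, 104 and 131 TPM, and 118, 121 and 118 TPM in the same order. In Caco-2 cells 4 of 5 co-culture libraries were below all mono-culture libraries, and in HepG2 cells the co-culture libraries were mostly the higher ones. ABCF3, which acts in translation control, had means of 81.2 TPM in Caco-2 cells and 53.2 TPM in HepG2 cells (difference 0.61, adjusted p = 0.000895).

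Averaged over the 4 conditions, 10 members were higher and 16 lower in Caco-2 cells, 81.2% of the members against 79.0% of all genes (49.8% higher and 29.2% lower). Relative to mono-culture control, this contrast added ABCA1, ABCF1 and ABCG2 to the members lower in Caco-2 cells and ABCC3 to the higher ones, and ABCF2 (ENSG00000033050) lost its call (difference 0.05, adjusted p = 0.586). The median was -0.13 over the members and 0.24 over all genes tested. With median-of-ratios scaling the members split into 7 higher and 19 lower, and 52.5% of the calls over all genes were higher, in place of 63.1%. With quantile normalization the members split into 6 higher and 21 lower, and the calls over all genes into 6424 higher and 6424 lower. The calls of ABCA7, ABCB8, ABCB10 and ABCC3 as higher were lost in at least 1 of these scalings, and all 16 lower calls held. Over all conditions, 4 members did not overlap and were higher in Caco-2 cells, among them ABCC9, ABCC4 and ABCA3, against 28.6% of all genes, and 6 did not overlap and were lower, among them ABCG5, ABCG8, ABCB4, ABCC1 and ABCC10, against 14.1%.

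Genes of 3 related lists were compared between the lines in mono-culture control. In this contrast 39.0% of all genes were higher and 23.4% lower in Caco-2 cells. All 3 ABC superfamily genes with another symbol differed: CFTR, a chloride channel of epithelia, was at 77.8 to 133.6 TPM in Caco-2 cells and 0.010 to 0.90 TPM in HepG2 cells (difference 6.63, adjusted p = 1.97e-15), whereas the peptide transporters TAP1 (difference -3.05) and TAP2 (difference -1.43) were lower in Caco-2 cells. Of 14 regulators of ABC genes, 3 were higher and 3 lower. NR1H4, the bile acid receptor FXR, was at 0.020 to 1.03 TPM in Caco-2 cells and 24.1 to 57.5 TPM in HepG2 cells (difference -5.06). NR1I2, the drug sensor PXR, was at 0.30 to 2.50 TPM and 10.8 to 25.6 TPM (difference -3.58), and PPARA was lower by 0.68. The oxysterol receptors NR1H3 (LXR alpha) and NR1H2 (LXR beta) were higher in Caco-2 cells by 1.15 and 0.46. PPARG was higher by 0.31, a call that was lost with both other scalings (adjusted p = 0.433 and 0.564). The highest regulator was NFE2L2, a transcription factor of the oxidative stress response, at 98.4 to 178.5 TPM in Caco-2 cells and 114 to 294 TPM in HepG2 cells. Of 6 LXR target genes outside the ABC family, 4 were higher in Caco-2 cells (PLTP by 2.62, LPCAT3 by 1.63, MYLIP by 1.58 and SREBF1 by 0.97) and 0 were lower, and SCD, a fatty acid desaturase, was the highest at 437 to 892 TPM and 663 to 1109 TPM. No gene of the 3 lists passed the test in a comparison of cultures or treatments within a line.

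Comparison of co-culture with mono-culture asked whether the connected line changes the transporters. The limma fits of the 4 groups of each line (15081 genes for Caco-2 and 14255 for HepG2) did not include the replicate number. In these fits 0 members passed the test in either line, averaged over treatments, in control or with FFAs. Calls that arose with the replicate number as a block are given in the last section. Averaged over treatments, the share of all genes called was 0% for Caco-2 and 0.0561% for HepG2 cells; it was 0.0199% in control Caco-2 cells and 0% in the other comparisons of cultures. At an unadjusted p under 0.05, the averaged contrast held 6 of 28 members in Caco-2 cells against 10.5% of all genes, and 8 of 31 members in HepG2 cells against 12.5%. Without averaging it held 5 of 28 members in control Caco-2 cells against 5.43% of all genes, and 2 with FFAs against 6.09%. In HepG2 cells it held 2 of 31 members in control against 7.53% of all genes, and 4 with FFAs against 5.63%. The member medians were 0.02 (Caco-2) and 0.01 (HepG2), beside 0.03 and -0.02 over all genes.

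The members nearest to the threshold in Caco-2 cells were ABCG2 and ABCB1. ABCG2 (chr4:88090150-88231628, minus strand) was at 14.5, 16.97 and 13.6 TPM in mono-culture control and 15.9, 15.0 and 9.03 TPM in mono-culture with FFAs, and at 8.57 and 8.79 TPM in co-culture control and 8.30, 8.06 and 7.94 TPM in co-culture with FFAs. All 5 co-culture libraries lay below all 6 mono-culture libraries, by a gap of 8.79 against 9.03 TPM, where 0.630% of all genes showed such a separation in this direction. The averaged difference was -0.67 (SE 0.14, 95% interval -0.97 to -0.37, unadjusted p = 0.000496, adjusted p = 0.249). ABCB1 was at 21.7, 27.3 and 44.3 TPM in mono-culture control and 40.3, 31.0 and 33.1 TPM in mono-culture with FFAs, and at 44.4 and 58.3 TPM in co-culture control and 52.1, 63.4 and 54.6 TPM in co-culture with FFAs. All co-culture libraries lay above all mono-culture libraries, although the nearest pair was 44.44 and 44.26 TPM, where 0.749% of all genes were separated in this direction. The averaged difference was 0.72 (SE 0.16, 95% interval 0.36 to 1.08, adjusted p = 0.308). With median-of-ratios scaling neither gene was separated any more, and 0 members were.

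ABCG2 had no call in this averaged contrast, but the outcome depended on a single library. Without mono-culture FFAs replicate 3, the library at 9.03 TPM, ABCG2 passed the threshold (difference -0.79, adjusted p = 0.0468). Leaving out any other single library gave no call (adjusted p from 0.203 to 0.561). Without both co-cultured Caco-2 libraries with the most HepG2 RNA (control replicate 1 and FFAs replicate 1), the difference of ABCG2 was as large (-0.67, adjusted p = 0.237) and that of ABCB1 was 0.85 (adjusted p = 0.212). Other Caco-2 members at an unadjusted p under 0.05 were ABCC9 (0.37), ABCE1 (-0.25), ABCC6 (0.29) and ABCD4 (0.20), with adjusted p from 0.389 to 0.466.

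In HepG2 cells ABCB1 was again the member nearest to the threshold. It was at 85.2, 99.9 and 83.6 TPM in mono-culture control and 61.4, 74.6 and 65.9 TPM in mono-culture with FFAs, and at 116, 97.97 and 109 TPM in co-culture control and 80.1, 111 and 98.1 TPM in co-culture with FFAs. The co-culture libraries were higher within each treatment on average but overlapped with mono-culture (difference 0.38, SE 0.095, 95% interval 0.18 to 0.59, adjusted p = 0.143). With FFAs alone the difference was 0.50 (adjusted p = 0.821). ABCG2 in HepG2 cells was at 18.9, 19.3 and 12.4 TPM in mono-culture control, 12.02, 17.6 and 13.04 TPM in mono-culture with FFAs, 21.0, 17.8 and 17.9 TPM in co-culture control and 20.7, 25.7 and 15.1 TPM in co-culture with FFAs. Mono-culture and co-culture overlapped. Among others at an unadjusted p under 0.05, ABCE1 (0.31), both ABCF2 IDs (0.36 and 0.35), ABCC3 (0.31) and ABCC4 (0.27) were above 0, and ABCC6 (-0.49) was below. In co-culture control against mono-culture control, ABCF2 (ENSG00000033050) had the smallest p, at 23.8, 23.9 and 31.8 TPM against 16.4, 13.0 and 21.3 TPM (difference 0.63, adjusted p = 0.578). No HepG2 member was separated between cultures, where 0.589% of all genes were separated as higher and 0.758% as lower in co-culture.

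**Figure D3:**
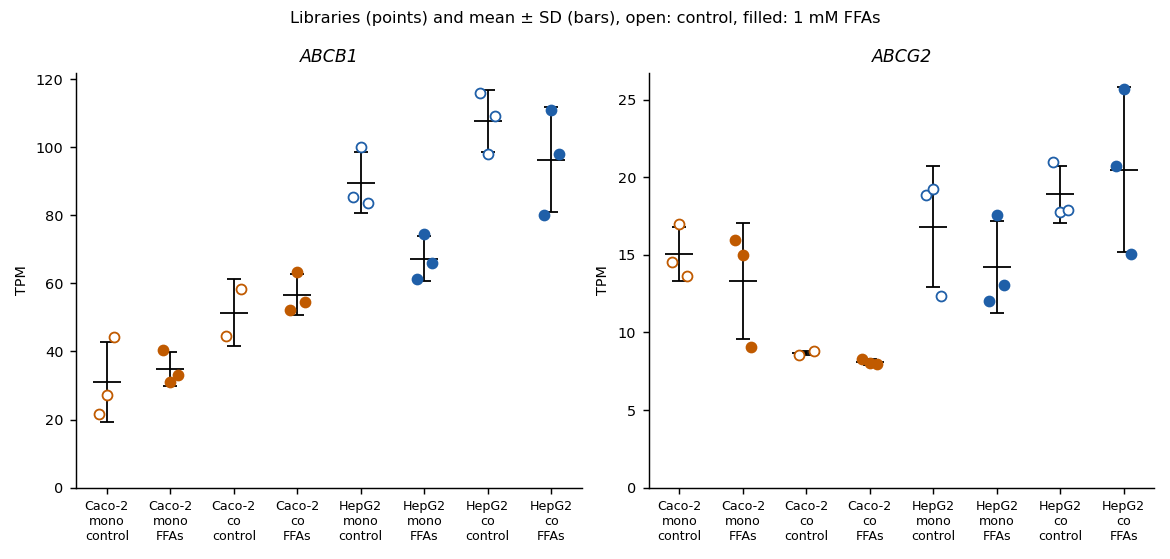
Level of ABCB1 and ABCG2 in TPM on the vertical axes, per library (points) with the mean and SD of each of the 8 groups. In Caco-2 cells the co-culture libraries of ABCB1 sit at 44.4 to 63.4 TPM, above all mono-culture libraries, and those of ABCG2 sit at 7.94 to 8.79 TPM, below all mono-culture libraries.

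Whether the culture effect differed between the lines was tested directly as an interaction in the fit of 8 groups. ABCG2 was the only one of 32 members with a call: its co-culture effect in Caco-2 cells minus that in HepG2 cells was -1.0 on the log2(TPM + 1) scale (SE 0.22, 95% interval -1.46 to -0.55, adjusted p = 0.0435). The share of all genes called was 0.533%, with 0.333% higher and 0.200% lower. Next came ABCE1 (-0.56, adjusted p = 0.0691), the ABCF2 IDs (-0.61 and -0.52, adjusted p = 0.105 and 0.156) and ABCC6 (0.77, adjusted p = 0.134). The call of ABCG2 was close to the threshold: it was lost in 19 of 23 fits that left out 1 library, without a filter on TPM (adjusted p = 0.0738), without the trend in limma (adjusted p = 0.0539) and without both Caco-2 libraries with the most HepG2 RNA, where the value was still -1.0 (adjusted p = 0.0753). The call was kept with subtraction of the RNA of the other line (-1.02, adjusted p = 0.0388). It was also kept with median-of-ratios scaling (-1.04, adjusted p = 0.0406) and quantile normalization (-1.08, adjusted p = 0.0313). With 0.1 in place of 1 added to TPM the value was -1.07 (adjusted p = 0.0453). Of the 9 hepatocyte markers, the fibrinogen genes FGA (1.16, adjusted p = 0.011) and FGB (1.42, adjusted p = 0.0231) also had a call in this interaction. FGB was at group means of 184 and 185 TPM in co-cultured and 88.7 and 83.8 TPM in mono-cultured Caco-2 cells, and FGA at 60.8 and 68.9 TPM against 38.1 and 38.8 TPM. The part of these markers in the ABCG2 result was not tested.

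Comparison of FFAs with control asked whether 1 day of lipid loading changes the transporters. No member passed the test in any FFAs contrast, in mono-culture, in co-culture, averaged over cultures, or for the difference of the FFAs effect between cultures, in either line. The share of all genes called was 0.0199% in co-cultured Caco-2 cells and 0% in the others. For the difference of the FFAs effect between lines it was 0.0182%, again with 0 members. At an unadjusted p under 0.05, the averaged contrast held 1 of 28 members in Caco-2 cells against 3.99% of all genes and 2 of 31 in HepG2 cells against 3.49%. The contrasts within 1 culture held 2 of 31 members in mono-cultured HepG2 cells against 2.24% of all genes and 0 members in the others, where the shares of all genes were 1.84% to 2.83%. The difference of the FFAs effect between cultures held 0 members in each line, against 1.94% of all genes in Caco-2 and 1.16% in HepG2 cells, and the difference between lines held 3 of 32 against 2.99%. Averaged over cultures the member medians were -0.01 (Caco-2) and -0.07 (HepG2), beside 0.01 over all genes in each line. FFAs-treated and control libraries were separated for 0 members in both lines, where the shares of all genes were 0.285% higher and 0.139% lower in Caco-2 cells and 0.0491% in each direction in HepG2 cells.

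The member with the smallest p in Caco-2 cells was ABCB10. It was at 39.7, 35.9 and 33.5 TPM in mono-culture control and 39.5, 40.7 and 39.4 TPM with FFAs, and at 32.6 and 36.1 TPM in co-culture control and 39.3, 43.5 and 37.6 TPM with FFAs. The first mono-culture control library reached the level of the treated ones, so the groups overlapped (averaged difference 0.18, SE 0.074, unadjusted p = 0.0364, adjusted p = 0.99). In mono-culture alone ABCC6 had the smallest p, at 43.99, 49.2 and 54.7 TPM with FFAs and 45.4, 41.9 and 34.6 TPM in control (difference 0.28, 95% interval -0.05 to 0.60). For the FFAs effect in co-culture minus that in mono-culture it was ABCC1, with a difference of -0.34 (95% interval -0.85 to 0.17). In co-cultured Caco-2 cells ABCC1 was at 5.26 and 6.58 TPM in control and at 5.42, 4.80 and 5.97 TPM with FFAs, and in mono-culture at 5.36, 4.63 and 6.0 TPM in control and 5.90, 6.54 and 6.81 TPM with FFAs.

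In HepG2 cells ABCB1 and ABCC3 had the smallest p. ABCB1 was at 61.4, 74.6 and 65.9 TPM in mono-culture with FFAs, below the 83.6 to 99.9 TPM of mono-culture control, and overlapped with its control in co-culture. Its difference was -0.41 in mono-culture (SE 0.14, unadjusted p = 0.011, adjusted p = 1) and -0.29 averaged over cultures (95% interval -0.50 to -0.08, adjusted p = 1). ABCC3 was at 23.2, 30.6 and 37.0 TPM in mono-culture with FFAs and 40.9, 41.8 and 44.1 TPM in mono-culture control (difference -0.49, SE 0.17, adjusted p = 1), and at 38.2, 44.8 and 45.7 TPM against 50.1, 36.5 and 51.0 TPM in co-culture. In co-culture alone ABCB8 had the smallest p, at 17.7, 15.6 and 13.3 TPM with FFAs and 17.8, 19.3 and 17.3 TPM in control (difference -0.22, 95% interval -0.53 to 0.09). For the FFAs effect in co-culture minus that in mono-culture it was ABCF2 (ENSG00000033050), with -0.55 (95% interval -1.13 to 0.03). The comparisons with and without FFAs and between cultures share libraries, so their values are not independent of each other.

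**Figure D4:**
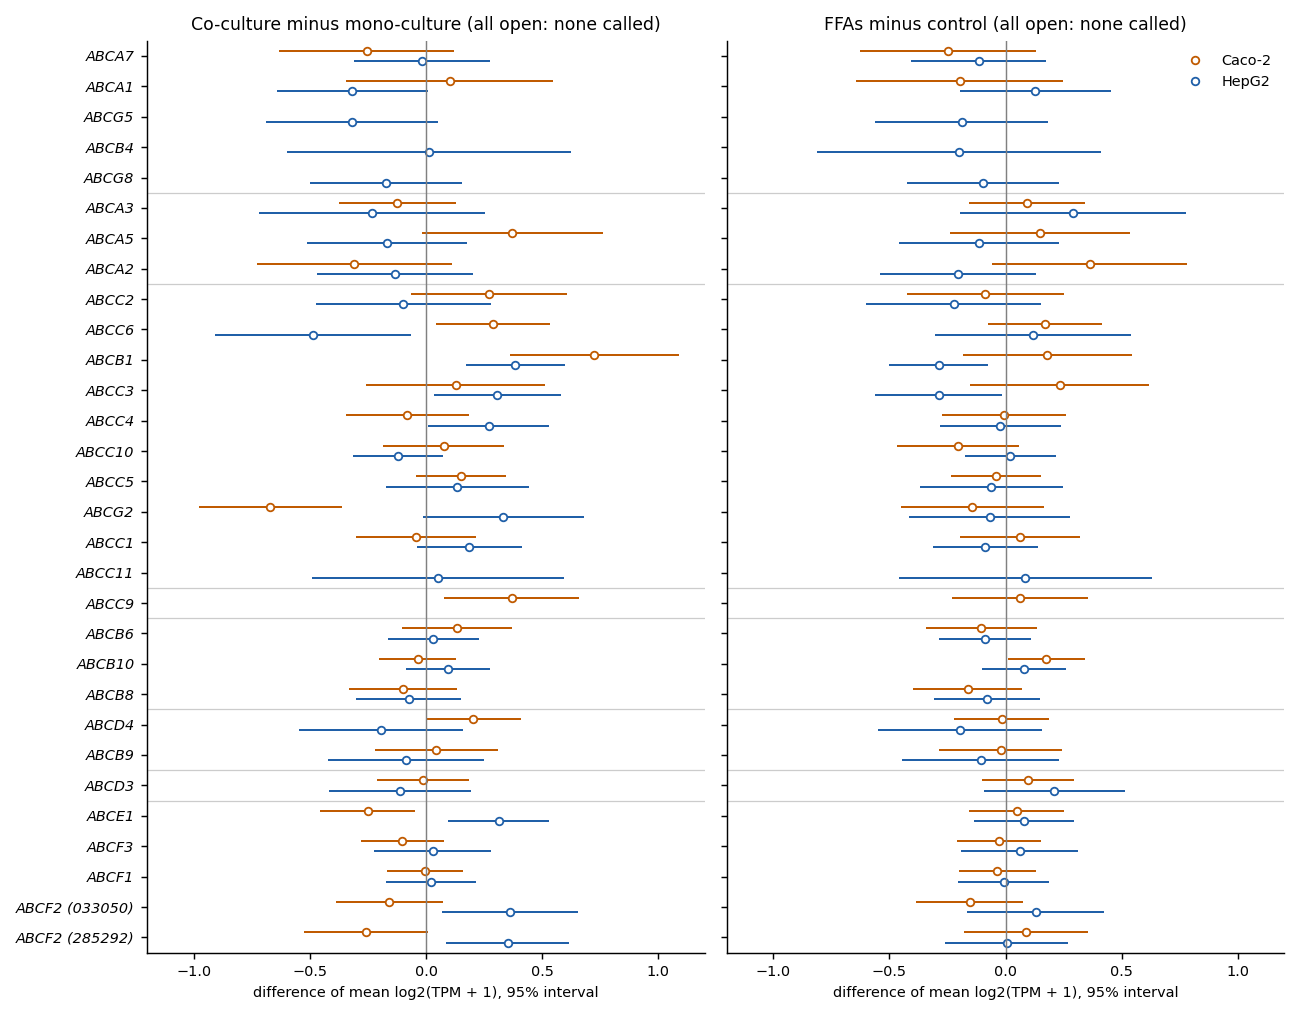
Averaged co-culture effect (one panel) and averaged FFAs effect (the other) of members in both lines on the log2(TPM + 1) scale, with 95% intervals and open symbols for values without a call. All symbols are open, and ABCB1 at 0.72 and ABCG2 at -0.67 in co-cultured Caco-2 cells lie farthest from 0 among Caco-2 members in the culture panel.

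The criteria used for the study, a one-way analysis of variance over the 4 groups of a line where the unadjusted p is below 0.05 and group means lie apart by a set minimum, were met by ABCB1 and ABCG2 in Caco-2 cells (2 of 32 members against 3.08% of 31100 genes) and by 3 of 32 members in HepG2 cells, among them ABCB1 and ABCC3 (against 3.56% of 29942 genes). When 1 library was left out, ABCG2 met them in all 11 Caco-2 fits and ABCB1 in 4 of 11, and in HepG2 cells ABCB1 met them in all 12 fits and ABCC3 in 3 of 12. With Benjamini-Hochberg adjustment 0 members met them in either line, where 0.0289% and 0.00334% of all genes did.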

How the data were processed

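mRNA-seq libraries had been prepared with a SMART-Seq v4 kit, which copies polyadenylated RNA and keeps no strand. The authors removed reads on rRNA, tRNA and the mitochondrial genome with Bowtie2 2.1.0, aligned the remaining reads by STAR 2.7.1a (GRCh38, Ensembl 98), and deposited 1 table of TPM per library, calculated with RSEM 1.3.0. The labels give 0.5% FBS during treatment, and the study's methods give serum-free medium with 1% BSA. The labels gave groups and replicate numbers. Values were analysed as log2(TPM + 1) with limma 3.58.1 (trend, two-sided, R 4.3.3), keeping genes whose mean reached 1 TPM in any group of the fit, with Benjamini-Hochberg adjustment over all genes tested at 0.05. Each line was fitted with its 4 groups, and both lines together with 8 groups. TPM are not counts, so tests for counts were not used, and the depth per library is unknown. The steps were tested on simulated data.

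The genes named with values in every library were ABCB1, ABCG2, the member with the highest group mean of each role, the 4 largest differences between lines in either direction, the member with the smallest p of each contrast within a line, and members separated between cultures or treatments. Values of a few members under this rule are not reported here, in the text or the figures, although counts over the members include them. The members and the gene lists were chosen with earlier results of these data known. The alternatives tried were median-of-ratios scaling, quantile normalization, 0.1 as pseudocount, no filter on TPM, no trend, only the groups compared, the replicate number as a block, subtraction of the other line's RNA and leaving out each library. Leaving out both Caco-2 libraries with the most HepG2 RNA, and the separation counts under median-of-ratios scaling, were chosen after seeing the data. Genes marking a line's RNA reached 50 TPM or more in each of its mono-culture control libraries and stayed at or below 1 TPM in the other line's. Gene coordinates are from GENCODE v44 (GRCh38), which held all 47 IDs.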

Additional observations from a re-analysis of the deposited data

Results flagged for a closer look

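The co-culture effect on ABCG2 differed between the lines in the interaction test, with -1.0025 on the log2(TPM + 1) scale in Caco-2 cells relative to HepG2 cells (SE 0.22, limma adjusted p = 0.0435). All 5 co-cultured Caco-2 libraries were below all 6 mono-cultured ones, whereas co-cultured and mono-cultured HepG2 libraries overlapped. The Caco-2 gap was 8.79 against 9.03 TPM, and it was gone with median-of-ratios scaling. Such a separation was seen in 0.630% of all genes in this direction, and 0.533% had a call in the interaction. The ABCG2 call was lost in most fits that left out 1 library. It was also lost without a filter on TPM (limma adjusted p = 0.0738) and without the trend (adjusted p = 0.0539). It was kept with median-of-ratios scaling (limma adjusted p = 0.0406) and quantile normalization (limma adjusted p = 0.0313). Groups of 2 or 3 libraries were too small to test single libraries as outliers.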

How the results depend on the processing

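The counts of members called between the lines, both directions together, stayed within 1.5 times under each alternative (17 to 23 in mono-culture control and 25 to 27 averaged when 1 library was left out), whereas the members higher in Caco-2 cells went from 10 to 6 with quantile normalization in both contrasts of the lines. No named value changed its direction. The replicate number as a block gave 1 call in Caco-2 cells for the averaged co-culture contrast (ABCG2, adjusted p = 0.0472; 0 to 1 when 1 library was left out) and 2 in HepG2 cells (ABCB1, adjusted p = 0.0393, and ABCC6), in place of 0 in each, where the calls over all genes rose from 0% to 0.398% and from 0.0561% to 3.45%. For the difference of the culture effect between lines the block gave 3 calls, in place of 1 (2.09% of all genes, in place of 0.533%). These were ABCC6, ABCE1 and ABCG2, with ABCG2 at -1.06 (limma adjusted p = 0.00721). No filter on TPM, no trend, and leaving out both Caco-2 libraries with the most HepG2 RNA gave 0 calls. Fits that left out 1 library gave 0 to 4 calls (4 without HepG2 mono-culture control replicate 3). The criteria of the analysis of variance were met by 0 members in each line with Benjamini-Hochberg adjustment, and by 5 in HepG2 cells with the block (5.55% of all genes, in place of 3.56%), with 1 to 2 in Caco-2 cells and 1 to 5 in HepG2 cells when 1 library was left out. In Caco-2 cells the block left 2 members, but ABCA7 in place of ABCB1 (4.42% of all genes, in place of 3.08%). The cause of these changes was not tested. Libraries with the same number did not deviate together throughout: their correlations ran from -0.09 to 0.31 in Caco-2 cells (7 of 15 pairs over 0.1) and from 0.03 to 0.60 in HepG2 cells (15 of 18), so the numbers were not taken as pairs, and the block changed no other count by over 1.5 times. Over all genes, the 8 calls of the averaged HepG2 co-culture contrast split into 4 higher and 4 lower, and into 6 and 2 with median-of-ratios scaling and 3 and 1 with quantile normalization. The FFAs contrasts had 0 members called under all alternatives run. Unknown depth leaves low members such as ABCG5, ABCG8 and ABCB4 in Caco-2 cells without a counting error.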
